A study of Mus musculus with 2 samples.

Results

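The levels of 31 peroxisomal genes were compared between the livers of mice with and without hepatocyte Lpcat3, the gene of a lysophospholipid acyltransferase. They comprise 15 enzymes of fatty acid oxidation and hydrogen peroxide removal, 5 transporters and membrane proteins, and 11 peroxins, the proteins that build the organelle. The genes were listed by name, and every probe set that the array annotation ties to exactly 1 of them was read, with no use of its value. The list itself was chosen with earlier results of these data known, so counts of direction over it support nothing by themselves. These 31 stand among 18193 genes with a probe set of their own. Total liver RNA came from 12-week-old male mice on chow, fasted for 6 hr. Both groups carried homozygous floxed Lpcat3 alleles, with loxP sites in introns flanking an exon. The control group (Flox/Flox) had no Cre, and the knockout group (L-Lpcat3 KO) carried the Albumin-Cre transgene, which acts in hepatocytes. The paper holds that the Lpcat3 RNA left in knockout liver likely comes from cells without the transgene, such as Kupffer and endothelial cells. RNA of 5 mice was pooled per genotype and read on 1 array, so each group is a single value. No test, standard error or p-value exists for any difference below, and the spread among mice is unknown.

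Peroxisomes shorten very long-chain, branched and dicarboxylic fatty acids and the side chains of bile acid precursors, work that mitochondria do poorly or not at all. Their oxidases pass electrons straight to oxygen, and catalase removes the hydrogen peroxide that results. In rodent liver, many of the genes belong to the programme of PPARα, a nuclear receptor that fatty acids activate and that was named for the peroxisome proliferation its ligands cause. Peroxisomal matrix proteins are made in the cytosol and imported folded, by receptors and membrane machinery that the Pex genes encode.

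Peroxisomal genes differed little between the pools, with a slight excess on the high side in L-Lpcat3 KO. Values are MAS5 signals, a linear background-corrected summary of a probe set, and each gene is represented by its brightest probe set. Signals under 76.4, the median of all signals of both arrays, were raised to that floor, and a gene was measured if at least 1 pool lay above it. All 31 genes were measured, and 29 exceeded the floor on each array. In pooled whole liver, fewer cells of a type and less RNA per cell cannot be told apart. The log2 ratio, L-Lpcat3 KO over Flox/Flox, was above 0 for 23 of the 31 (74.2%), against 50.7% of all 12059 measured genes. The median ratio was 0.10 (1.07-fold), against 0.00 for all measured genes. Without the 2 genes at the floor in Flox/Flox, Acox3 and Abcd2, 21 of 29 ratios were above 0, against 49.7% of the 10820 genes that exceeded it on each array, and the median was again 0.10.

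By size, the share of higher genes stood near that of all measured genes, while no gene was lower by 1.2-fold or more. At least 1.5-fold higher was 1 gene (Abcd2, a value near background), against 4.01% of all measured genes, and 0 genes were lower by that size, against 3.14%. At least 1.2-fold higher were 5 of 31 (16.1%), against 15.5% of all genes, and 0 were lower by that size, against 13.6%. The 5 were Decr2, Abcd2, Abcd4, Pxmp4 and Pex11a. Of the 29 genes clear of the floor, 4 were higher by 1.2-fold or more, against 13.5% of genes in that range, and 0 lower, against 12.8%. None of the 29 was 1.5-fold higher or lower, against 2.98% and 2.61%. Bright genes scattered less on these arrays, with an SD of log2 ratios across genes of 0.18 above a signal of 1000 and 0.31 over all measured genes, and most peroxisomal genes were bright. Of the 27 with signals over 1000 in both pools, a limit set with values known, 3 (11.1%) were at least 1.2-fold higher, against 4.49% of the 4102 genes in that range, and 0 were lower, against 4.73%. None of the 27 reached 1.5-fold in either direction, against 0.488% higher and 0.463% lower. Of these 27, 20 (74.1%) had ratios above 0, against 48.7% of the genes in that range. In the plot of signals by gene, the coloured points lie to the right of the open ones for most genes, by distances that are small on the scale of the axis.

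**Figure D1:**
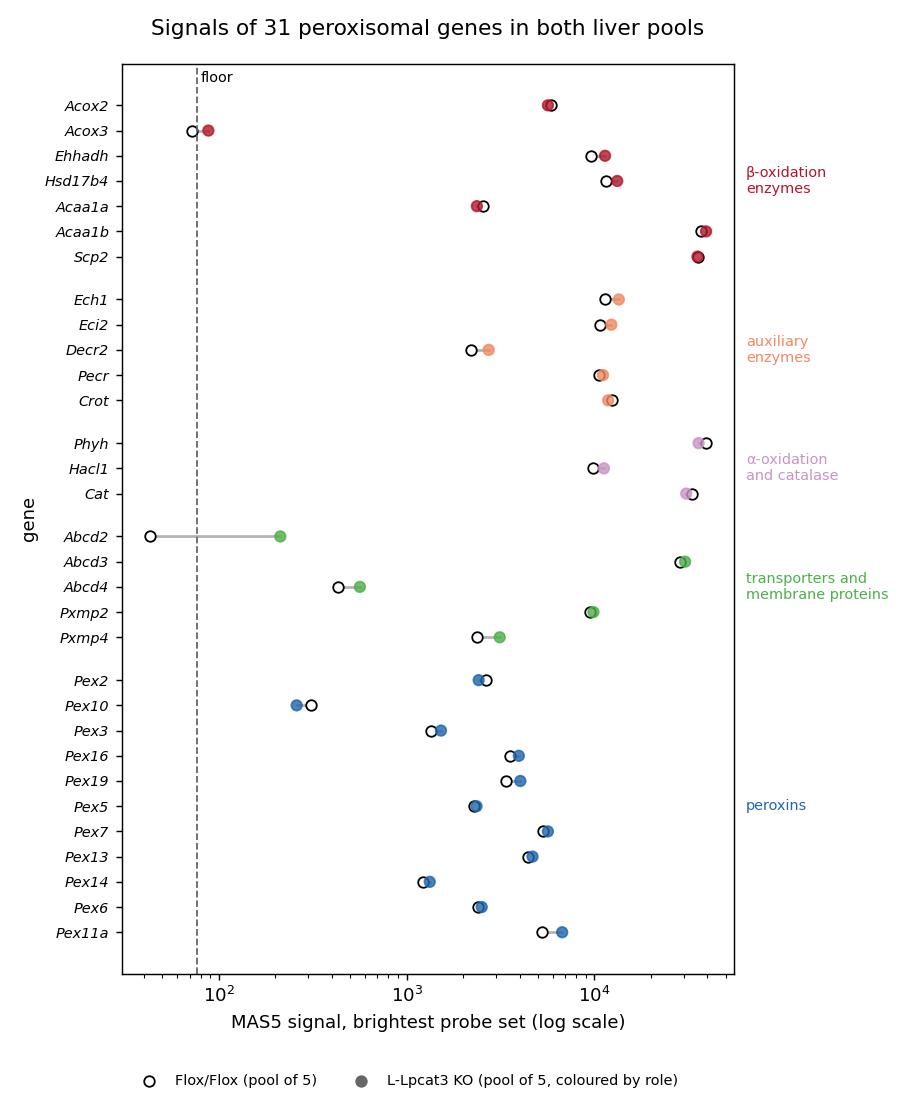
MAS5 signal (x axis, log scale) of the brightest probe set of 31 peroxisomal genes (y axis), grouped by role; open points are the Flox/Flox pool, coloured points the L-Lpcat3 KO pool, grey lines join them and the dashed line is the floor of 76.4. Most pairs nearly coincide; Abcd2 (42.9 and 213) has the widest gap and lies below the floor in Flox/Flox.

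The promoters of these genes were examined because PPARα binds, with its partner RXR, to a direct repeat of a nuclear receptor half-site spaced by 1 base. RefSeq windows of GRCm38.p6, 250 bases upstream of the annotated start sites, were at hand for 25 of the 31 genes (14 enzymes, 9 peroxins and 2 membrane proteins), and some genes have several windows. The repeat, AGGTCA followed by AGGTCA with 1 base of any kind between, searched on both strands, was in 0 of the 25, and in 0.0407% of all 27025 genes with a window. The half-site AGGTCA on either strand, which the repeat contains, was found in 2 of the 25, Scp2 and Cat (8.0%, against 15.8% of all genes). The GC box GGGCGG on either strand was present in 18 of 25 (72.0%, against 35.4%), in 11 of 14 enzymes and in 6 of 9 peroxins. The CCAAT box on either strand was present in 13 of 25 (52.0%, against 37.5%), in 9 of 14 enzymes and in 3 of 9 peroxins. The TATA box TATAAA on either strand was present in 2 of 25 (8.0%, against 14.3%), both of them peroxins. A match is a run of letters and no proof of binding. Sites lying outside these windows and inexact forms of the repeat were not searched. The exact repeat is so rare over all genes that its absence from 25 could be foreseen and carries no meaning. The comparison shares cover all genes with a window, not only those measured in these livers. The windows of 5 genes are shown, 3 with ratios among the highest of their groups (Ehhadh, Decr2 and Pex11a) and the pair with a half-site, whose main ratios were below 0 (Scp2 and Cat). Each is written 5′ to 3′ on the strand of the gene and ends at the base before the start site, with half-sites, GC boxes and CCAAT boxes of either strand in capitals.
Ehhadh (chr16:21787835-21788084, minus strand): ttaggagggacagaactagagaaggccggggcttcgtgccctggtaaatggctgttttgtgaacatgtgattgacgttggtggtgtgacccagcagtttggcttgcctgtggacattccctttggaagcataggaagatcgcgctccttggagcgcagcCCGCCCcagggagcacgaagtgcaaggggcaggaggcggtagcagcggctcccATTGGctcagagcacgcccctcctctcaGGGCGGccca
Decr2 (chr17:26090165-26090414, minus strand): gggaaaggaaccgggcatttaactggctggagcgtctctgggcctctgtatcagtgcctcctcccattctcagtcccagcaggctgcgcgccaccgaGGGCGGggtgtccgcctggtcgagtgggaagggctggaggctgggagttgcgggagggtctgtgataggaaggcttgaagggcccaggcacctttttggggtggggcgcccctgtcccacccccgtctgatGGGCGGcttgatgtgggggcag
Pex11a (chr7:79743132-79743381, minus strand): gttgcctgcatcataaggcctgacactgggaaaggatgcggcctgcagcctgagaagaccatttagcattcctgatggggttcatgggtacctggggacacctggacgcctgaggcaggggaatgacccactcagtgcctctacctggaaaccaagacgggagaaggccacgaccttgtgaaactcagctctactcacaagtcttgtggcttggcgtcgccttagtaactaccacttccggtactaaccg
Scp2 (chr4:108118548-108118797, minus strand): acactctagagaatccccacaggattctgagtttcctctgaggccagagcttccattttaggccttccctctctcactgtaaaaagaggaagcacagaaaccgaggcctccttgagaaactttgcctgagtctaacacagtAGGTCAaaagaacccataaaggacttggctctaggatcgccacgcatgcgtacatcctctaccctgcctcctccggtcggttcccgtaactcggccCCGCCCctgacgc
Cat (chr2:103485154-103485403, minus strand): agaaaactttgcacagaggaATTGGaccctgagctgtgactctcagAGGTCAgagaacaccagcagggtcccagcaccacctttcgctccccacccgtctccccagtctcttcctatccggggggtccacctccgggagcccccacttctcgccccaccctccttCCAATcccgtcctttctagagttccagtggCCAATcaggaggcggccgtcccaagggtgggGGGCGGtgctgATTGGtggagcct
Ehhadh holds 2 GC boxes, with first letters 91 and 10 bases before the start, and an inverted CCAAT box 38 bases before it. Decr2 holds 2 GC boxes and Pex11a none of these elements. The half-site lies 109 bases before the start in Scp2 and 204 bases before it in Cat, which also holds 4 CCAAT boxes.

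β-Oxidation in peroxisomes starts with acyl-CoA oxidases. Acox2, which acts on branched chains and bile acid intermediates, gave a signal of 5887 in Flox/Flox livers and 5658 in those of L-Lpcat3 KO (log2 ratio -0.06). Acox3, the pristanoyl-CoA oxidase, lay close to the floor (71.6 and 88.0), so its ratio of 0.20 reads little more than background. The bifunctional proteins hydrate and dehydrogenate the oxidase product. Ehhadh, the L-bifunctional protein and a classical PPARα target, was 9608 in Flox/Flox livers and 11398 in those of L-Lpcat3 KO, 1.19-fold higher (log2 ratio 0.25). Hsd17b4, the D-bifunctional protein that serves branched chains and bile acid precursors, was 11592 and 13237, 1.14-fold higher (0.19), with 0.10 by its other probe set. Both bifunctional proteins were thus higher in L-Lpcat3 KO by less than 1.2-fold.

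The thiolases complete the cycle, and their probe sets did not give a single direction. Acaa1b, a 3-ketoacyl-CoA thiolase, was 36820 in Flox/Flox livers and 39339 in those of L-Lpcat3 KO (log2 ratio 0.10). Its close paralog Acaa1a was 2559 and 2368 by its brightest probe set (-0.11), but 949 and 1220 by the other (0.36). These genes are similar enough in sequence that a probe set may capture RNA of both, so the split between them is uncertain. Scp2 encodes sterol carrier protein 2 and, from another promoter, the thiolase SCPx for branched chains. Its brightest probe set gave 35531 and 35406, a ratio of -0.01 that turned to above 0 after median centring, quantile normalization and loess. The next brightest gave 33291 and 29976 (-0.15). Of the dim pair, one at 1416 and 1151 gave -0.30, whereas the other, at 795 and 2005, was 2.52-fold higher (1.33). The 4 probe sets of Scp2 thus spanned 1.63 on the log2 scale, the widest range of any of the 31 genes.

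Auxiliary enzymes prepare unsaturated chains for the cycle and hand its products on. Of these 5, 4 had ratios above 0 (80%, against 50.7% of all measured genes), with a median of 0.20. Ech1, a dienoyl-CoA isomerase, was 11377 in Flox/Flox livers and 13501 in those of L-Lpcat3 KO, 1.19-fold higher (log2 ratio 0.25). Eci2, an enoyl-CoA isomerase, was 10688 and 12316, 1.15-fold higher (0.20). Decr2, the 2,4-dienoyl-CoA reductase, was 2215 and 2737, 1.24-fold higher (0.31), the highest ratio of the 15 enzymes. All 3 act on double bonds that the main cycle cannot pass. Pecr, which reduces trans-2-enoyl-CoA, was 10552 and 11121 (0.08), with 0.00 by its dimmer probe set. Crot, which makes carnitine esters of the medium-chain products for export, was 12345 and 11837 (-0.06).

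Phytanic acid, a branched fatty acid of the diet, needs α-oxidation before β-oxidation can begin. Phyh, which hydroxylates phytanoyl-CoA, was 39249 in Flox/Flox livers and 35892 in those of L-Lpcat3 KO (log2 ratio -0.13). Hacl1, the lyase that then cleaves the hydroxylated chain, was 9835 and 11248, 1.14-fold higher (0.19). The 2 enzymes of this pathway thus lay on opposite sides of 0. Cat, which encodes catalase, was 33213 and 30829 (-0.11), and its other probe set was lower as well, 21640 and 17876 (-0.28, 1.21-fold lower).

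Among the 14 enzymes above the floor in both pools, 6 were higher by 0.15 or more on the log2 scale (Ehhadh, Hsd17b4, Ech1, Eci2, Decr2 and Hacl1) and the other 8 lay between -0.15 and 0.15, a limit set with values known. The share of all genes beyond that limit was not counted, and it is smaller than the SD of 0.18 across genes over 1000. The split therefore only sorts these enzymes and does not set the 6 apart from the background. The enzymes with signals over 30000 in both pools (Acaa1b, Scp2, Phyh and Cat) belong to the second set. All 75 genes in that range had a median of -0.04 and an SD of 0.07 across genes, narrower than the 0.18 across genes over 1000, and 18 of them had ratios above 0.

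**Figure D2:**
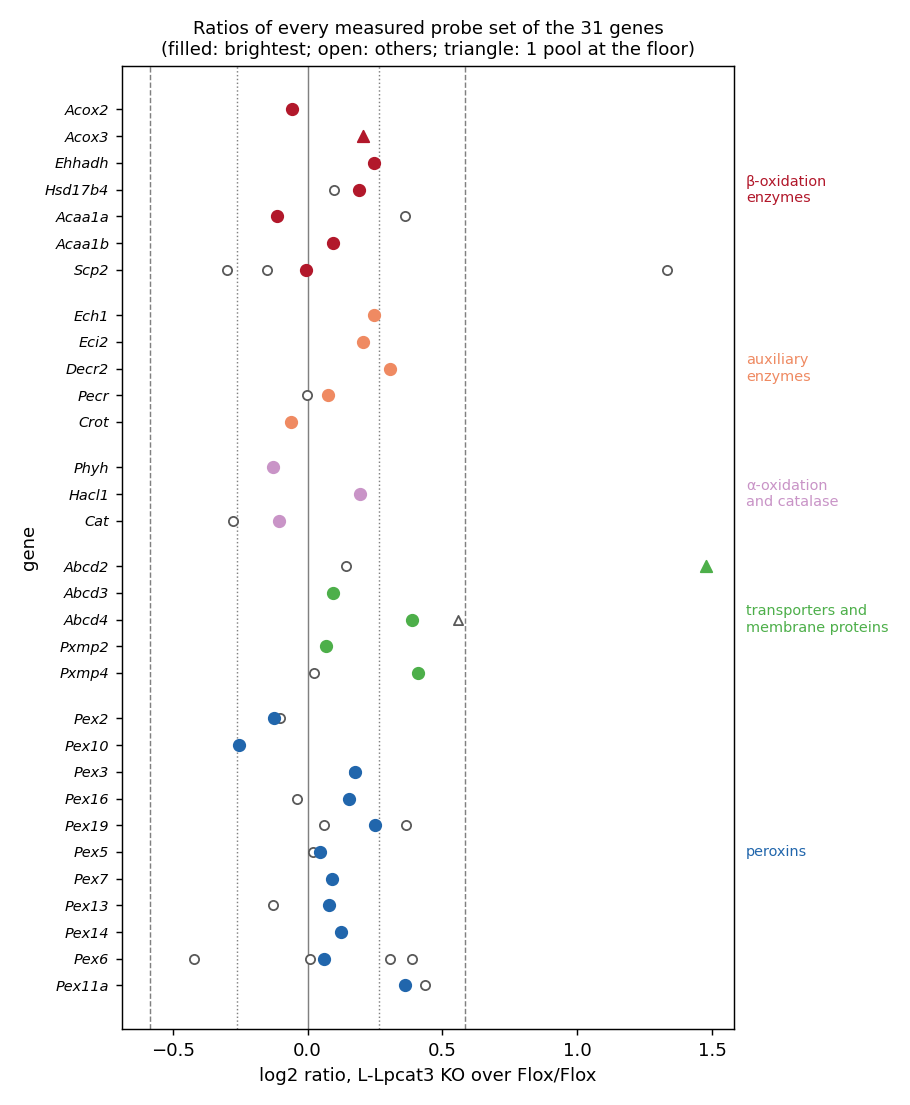
The x axis is the log2 ratio, knockout over control, for every measured probe set of the 31 genes (y axis) by role; filled points are the brightest probe set of each gene, open points the others, triangles have 1 pool at the floor, dotted lines mark 1.2-fold and dashed lines 1.5-fold. Both probe sets of Pex11a (0.36 and 0.43) lie beyond 1.2-fold, while those of Scp2 run from -0.30 to 1.33 and those of Pex6 from -0.42 to 0.39.

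All 5 transporters and membrane proteins had ratios above 0, against 50.7% of all measured genes. Their median was 0.39, but the sizes rest on dim or disagreeing probe sets. Abcd2, an ABC transporter for very long-chain acyl-CoA, had the largest ratio of all 31 genes. Its brightest probe set was 42.9 in Flox/Flox, below the floor, and 213 in L-Lpcat3 KO, at least 2.78-fold higher for this floor. Another probe set of the gene, just above the floor in both pools, gave 79.7 and 87.9 (log2 ratio 0.14), and its other 2 lay under the floor in both. Because Abcd2 was measured through the pool where it was high, it could only differ in that direction. Abcd3, which encodes PMP70, the most abundant ABC transporter of the hepatic peroxisome membrane, was 28468 and 30425 (0.10). Abcd4, whose product has since been placed in lysosomes, was 432 and 564, 1.31-fold higher (0.39), and its dimmer probe set was 72.9 and 112, at least 1.47-fold higher.

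Pxmp2, a channel for small solutes that 1 probe set reads, was 9438 in Flox/Flox livers and 9889 in those of L-Lpcat3 KO (log2 ratio 0.07). Pxmp4 was 2358 and 3134, 1.33-fold higher (0.41), by its brightest probe set, and 1927 and 1960 (0.02) by the other. Without Abcd2 the median of these genes was 0.24.

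Of the 11 listed peroxins, 9 had ratios above 0 (81.8%, against 50.7% of all measured genes), with a median of 0.09 and a range from -0.26 to 0.36. By second brightest probe sets, which 8 of them have, the median was -0.00959. Pex26 and Pex11g, peroxins outside the list, were both below 0. Pex26 was 1979 in Flox/Flox livers and 1864 in those of L-Lpcat3 KO (log2 ratio -0.09), and Pex11g was 1881 and 1626 (-0.21). Pex11a, which drives elongation and division of peroxisomes and is induced by PPARα ligands, was 5251 in Flox/Flox livers and 6739 in those of L-Lpcat3 KO, 1.28-fold higher (log2 ratio 0.36). Its second probe set, of like brightness, was 5096 and 6888 (0.43). Pex11a was the one peroxin at least 1.2-fold apart, and its ratio lay between 0.36 and 0.43 in every alternative run.

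The peroxins that insert membrane proteins were next. Pex19, the chaperone of newly made membrane proteins, was 3390 in Flox/Flox livers and 4034 in those of L-Lpcat3 KO, 1.19-fold higher (log2 ratio 0.25), with 0.37 and 0.06 by its other 2 probe sets. Pex3, the membrane dock for Pex19, was 1349 and 1525 (0.18), with 0.17 by its other probe set. Pex16, which recruits Pex3, was 3559 and 3960 (0.15), with -0.04 by a dim probe set. By their brightest probe sets, all 3 were higher in L-Lpcat3 KO by less than 1.2-fold.

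The receptors and docking proteins of matrix import differed little. The receptor Pex5, which recognises the carboxy-terminal signal of most matrix enzymes, was 2282 and 2357 in Flox/Flox and L-Lpcat3 KO (log2 ratio 0.05), and 0.02 by its other probe set. Pex7, the receptor for the amino-terminal signal that thiolase and Phyh carry, was 5308 and 5657 (0.09). The docking proteins Pex13 and Pex14 were 4432 and 4685 (0.08) and 1220 and 1328 (0.12), although the dim probe set of Pex13 gave -0.13. Receptors and docking proteins were thus within 1.1-fold by their brightest probe sets.

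By their brightest probe sets, the peroxins of the list with ratios below 0 were Pex2 and Pex10. Both form part of the RING ubiquitin ligase that marks Pex5. Pex2 was 2636 in Flox/Flox livers and 2421 in those of L-Lpcat3 KO (log2 ratio -0.12), with -0.10 by its dimmer probe set. Pex10 had the lowest ratio of the 31 genes, 310 against 260, 1.19-fold lower (-0.26), at a dim signal and with no second probe set. The ATPase subunit Pex6, which helps pull the receptor out of the membrane, was 2407 and 2513 (0.06). Of its other probe sets, one of like brightness was 2835 and 2117 (-0.42, 1.34-fold lower), one gave 0.01 and 2 dim ones gave 0.39 and 0.31. The choice of probe set therefore decided the sign of Pex6, which was -0.42 when brightness was taken as the mean linear signal.

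Enzymes and peroxins had the same median to within 0.003 on the log2 scale (0.095 and 0.092), and their means were 0.086 and 0.088. Of the listed enzymes 60.0% had ratios above 0, and of the listed peroxins 81.8%, against 50.7% of all measured genes. The share of peroxins leaves out Pex26 and Pex11g, both below 0, so its distance from that of the enzymes depends on the list. Acox3, under the floor in Flox/Flox, was measured only through L-Lpcat3 KO and could only be higher there. Without Acox3, 57.1% of the enzymes had ratios above 0, their median was 0.086, and the difference of medians was -0.006. The difference of medians ran from -0.022 (floor at 387) to 0.077 (mean of probe sets) over the alternatives and took both signs. It has no test, since genes are not replicates of a genotype.

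**Figure D3:**
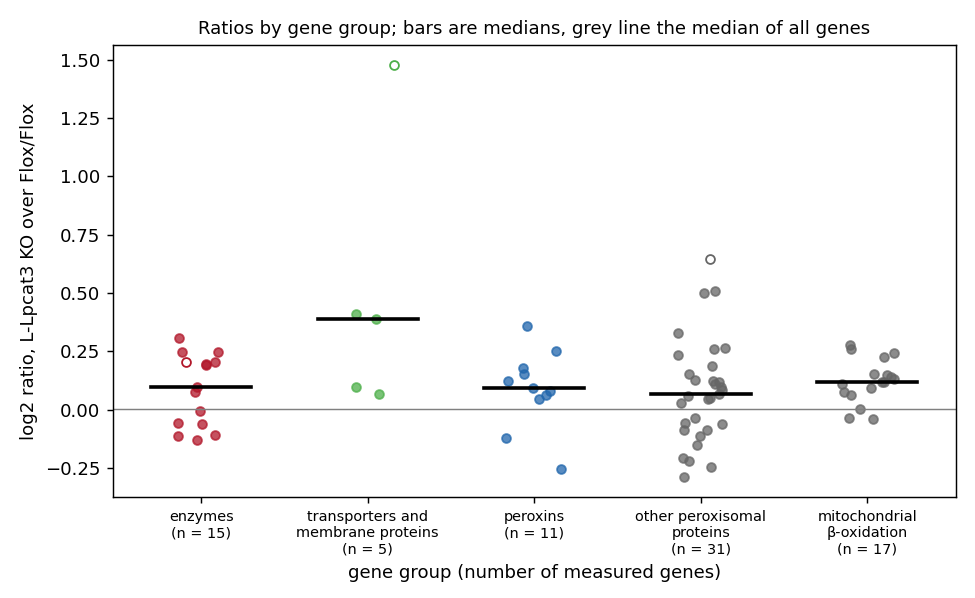
The y axis is the log2 ratio, knockout over control, and the x axis names 5 groups of genes, each gene drawn as a point; open points mark genes at the floor in 1 pool, black bars are group medians and the grey line is the median of all measured genes. Enzymes and peroxins share a median near 0.09, beside 0.07 for other peroxisomal proteins and 0.12 for mitochondrial β-oxidation.

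Most of the 31 genes are read by more than 1 probe set, 58 in all, of which 50 lay above the floor in both pools. Of these 50, 34 had ratios above 0, and the share over all probe sets of the arrays was not counted. In 14 genes at least 2 probe sets lay above the floor in both pools. These ran in 1 direction in 8 of the 14, above 0 in Hsd17b4, Pex3, Pex5, Pex11a, Pex19 and Pxmp4 and below 0 in Cat and Pex2. They pointed both ways in the other 6 (Acaa1a, Pecr, Pex6, Pex13, Pex16 and Scp2). Probe sets of 1 gene share the same 2 RNA pools and are no biological replicates.

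Other peroxisomal proteins outside the list, Pex26 and Pex11g among them, had a median of 0.07 over the 31 measured of 38 listed. Of these 31, 20 had ratios above 0 (64.5%, against 50.7% of all measured genes). At least 1.2-fold higher were 5 (16.1%, against 15.5%), a share near the background, and 1 was lower by that size (3.23%, against 13.6%). At least 1.5-fold higher was 1 of 31, against 4.01% of all genes, the D-amino acid oxidase Dao, at the floor in Flox/Flox (59.8 and 119). The brightest, urate oxidase Uox and the fatty acyl-CoA synthetase Slc27a2, had ratios of -0.15 and 0.04. Named after their values were seen, Gnpat, the first enzyme of ether lipid synthesis, was 1262 in Flox/Flox livers and 1794 in those of L-Lpcat3 KO, 1.42-fold higher. Crat, a carnitine acetyltransferase, was 655 and 928, 1.42-fold higher. Baat, which joins bile acids to taurine or glycine, was the one at least 1.2-fold lower (5600 and 4586).

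Neighbouring pathways of fatty acid oxidation give the setting. Mitochondrial β-oxidation had 15 of 17 ratios above 0 (88.2%, against 50.7% of all measured genes) and a median of 0.12. At least 1.2-fold higher was 1 of the 17 (5.88%, against 15.5%), Etfdh at 0.28, named after its value was seen, and 0 were lower by that size, against 13.6%. Its brightest genes, Hadh and Acaa2, had ratios of 0.24 and 0.06. Microsomal ω-oxidation makes the dicarboxylic acids that peroxisomes shorten. Of its 3 measured Cyp4a genes, Cyp4a14 was 3507 in Flox/Flox livers and 15684 in those of L-Lpcat3 KO, Cyp4a31 was 715 and 1432, and Cyp4a12a was 12363 and 13713. Cyp4a genes are close paralogs, so single values are uncertain. Ppara itself was 4958 and 5229 (0.08) and Rxra 5414 and 5104 (-0.09). Of 8 genes found of 10 listed for PPARα, the other PPARs and their partners, 7 had ratios above 0 (87.5%, against 50.7%). The other PPARs, Pparg (213 and 377, 1.77-fold) and Ppard (91.8 and 150, 1.63-fold), both dim, were at least 1.5-fold higher, against 4.01% of all genes.

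**Figure D4:**
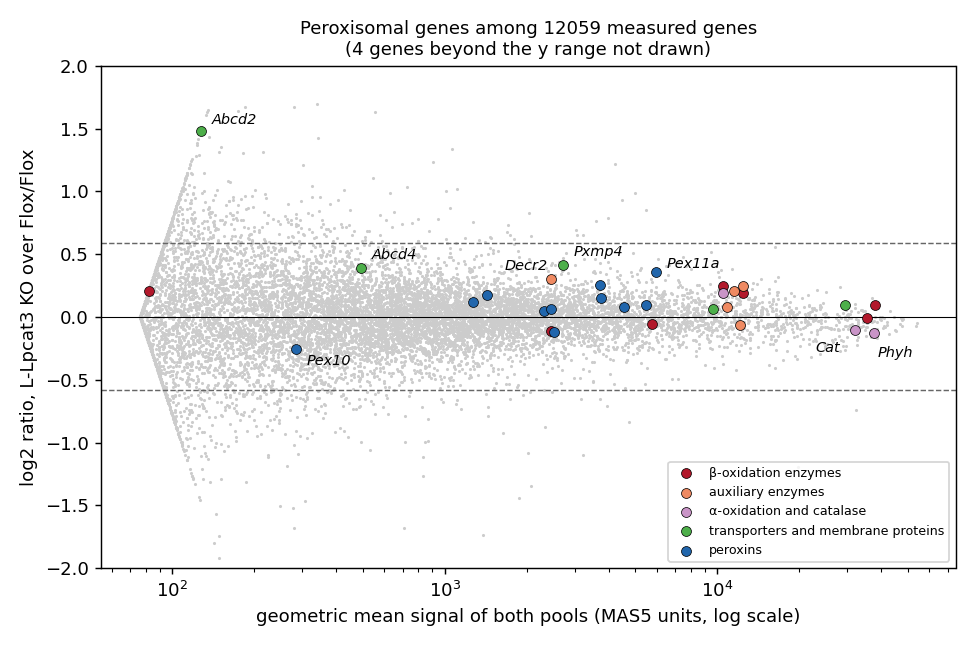
The y axis is the log2 ratio, knockout over control, and the x axis the geometric mean MAS5 signal of the pair of pools on a log scale; grey points are the 12059 measured genes (4 lie beyond the y range and are not drawn), coloured points the 31 peroxisomal genes by role, and dashed lines mark 1.5-fold. Pxmp4 (0.41), Pex11a (0.36) and Decr2 (0.31) lie toward the upper edge of genes of like signal, while Abcd2 (1.48) lies on the edge set by the floor.

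The arrays as a whole bear on these values as follows. The log2 signals of the pools had a Pearson r of 0.989 over the genes that both pools placed above the floor, a description across genes. Lpcat3, read by 1 probe set, was 3310 in Flox/Flox livers and 1305 in those of L-Lpcat3 KO, and whether that probe set lies in the deleted part was not checked. For comparison, ratios were above 0 for 50.7% of all measured genes and for 24% of genes over 30000 in both pools (median -0.04). Of the 6 hepatocyte markers found of 8, all bright and led by Apoa1 and Ttr, 5 had ratios below 0 (median -0.05), with sums of 244756 and 237480. Most of these markers exceeded 30000 in both pools, so their direction stood near that of genes of like brightness. All 8 Kupffer cell and macrophage markers, led by Csf1r and Cd5l, had ratios below 0 (median -0.24), with sums of 9462 and 8442. Of the 5 sinusoidal endothelial markers, 4 had ratios above 0 (80%, against 50.7% of all measured genes, median 0.23), and Pecam1 was at -0.24. Their sums were 4683 and 5547, carried largely by Clec4g, with Stab2 next. Other cell types were dimmer and mixed in direction. Of the bile duct markers Sox9 was 162 and 77.6, 2.08-fold lower, whereas Epcam (58.4 and 128) was at least 1.68-fold and Krt7 at least 1.32-fold higher from the floor, and Krt19 was under the floor in both pools. Of the stellate markers Reln was 2318 and 2368, Lrat 591 and 552, Des lay at the floor in Flox/Flox (41.7 and 98.4), and Col1a1 was under it in both. The lymphocyte list had Ptprc, a marker of all leukocytes, at 366 and 300.5 (-0.29), with Cd3e and Cd79a under the floor in both. None of the neutrophil markers S100a8, S100a9 and Ngp was above the floor in both pools. The part of these marker differences in the peroxisomal values was not tested.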

How the data were processed

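Biotinylated cRNA of total liver RNA, pooled from 5 mice per genotype, was hybridized to Affymetrix mouse expression arrays. For each array the authors deposited the intensity of every probe set, which the submitters' processing notes name as MAS5 signals (version not given in the sources used here), and the methods name GeneSpring GX. Both arrays had a mean of 499.8 without the lowest and highest 2% of signals, so they had been scaled to a common level.

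Of 45101 probe sets, 34945 had 1 gene symbol through the platform annotation, with symbols brought up to date by Entrez ID from the RefSeq table of GRCm38.p6. A further 932 listed several genes, 9160 were unnamed here and 64 were controls; these were left out. Log2 was taken with no further scaling, a floor at the 50th percentile (76.4) and no pseudocount. A gene took the value of its probe set with the highest mean log2 signal. With 1 array per genotype no test was run. The number of arrays limits the precision, and sizes of 1.5-fold and 1.2-fold only count differences between these pools.

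The members and the gene lists were chosen with earlier results of these data known, so they support nothing by themselves. All 31 members are named. From other lists, the rule named members at least 1.5-fold apart and the 2 brightest; other names there, markers included, were chosen after their values were seen. The alternatives were median centring, quantile normalization and loess, floors at the 25th or 75th percentile or none, a pseudocount of 50, 1.2-fold and 2-fold sizes, means in place of medians, and other ways to take a gene's value from its probe sets. The study's western diet arrays were not used here. Steps were tested on simulated data. Python 3.11.15, numpy 2.4.6, pandas 2.3.3, statsmodels 0.14.6 and matplotlib 3.10.9 were used.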

Additional observations from a re-analysis of the deposited data

Results flagged for a closer look

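A pair of probe sets that the annotation ties to both peroxisomal thiolases, Acaa1a and Acaa1b, was left out above because each lists more than 1 gene, and both gave signals far above the floor. One gave 17811 in Flox/Flox livers and 19602 in those of L-Lpcat3 KO (1.10-fold, log2 ratio 0.14), and the other 29798 and 31868 (1.07-fold, 0.10). Both lay close to the ratio of 0.10 of the probe set of Acaa1b alone. No group holds the 4 samples needed to look for a sample far from the others.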

How the results depend on the processing

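No paired analysis was possible because each genotype is 1 array without a replicate number; for the same reason no replicate could be left out. The count of ratios above 0 ran from 21 to 24 in all alternatives but the second brightest probe sets, where it was 9 of 16. Those probe sets gave medians of 0.0224 for all genes, -0.00214 for enzymes (5 genes), -0.00959 for peroxins (8 genes) and 0.14 for transporters and membrane proteins (3 genes), with 2 genes 1.2-fold lower or more and 0 genes 1.5-fold higher. The count of 1.5-fold higher genes was 0 without the genes at the floor in 1 pool, and 0 when the 75th percentile set the floor, since both leave out Abcd2; the median of transporters and membrane proteins was then 0.24. The mean of probe sets gave 0.22 for that group and a difference of 0.0766 between the medians of enzymes and peroxins. With means in place of medians, all genes had 0.15 and transporters and membrane proteins 0.49. The count of genes at least 1.2-fold lower was 1 after loess and 1 with brightness as mean linear signal. The sign of single genes differed in 1 (Scp2) after each of the 3 scalings, in 3 (Acaa1a, Scp2 and Pex13) by the mean of probe sets, in 5 of 16 (Acaa1a, Pecr, Pex6, Pex13 and Pex16) by second brightest probe sets and in 1 (Pex6) by mean linear signal. The cause was not tested. By signal order, 22 of 31 genes held a place within 1 of each other in both pools, and 29 by the mean of probe sets. Leaving out genes at the floor in 1 pool, and brightness by mean linear signal, were chosen after seeing the data. Without replicates, differences of the size seen here cannot be set apart from variation among mice or arrays.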
